A study of Mus musculus with 16 samples.

Results

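Amino acid transporters carry amino acids and close relatives of amino acids across membranes, and 64 of the 23935 gene symbols in the deposited table belong to the 7 solute carrier families analysed here. Members were chosen by symbol alone: every gene named Slc1a, Slc3a, Slc6a, Slc7a, Slc36a, Slc38a or Slc43a followed by a number, without Slc7a11, the cystine-glutamate exchanger. The rule also takes in a few genes that are not amino acid carriers: the monoamine carriers Slc6a2, Slc6a3 and Slc6a4, the nucleobase carrier Slc43a3, the protein-coding neighbour Slc7a6os and the noncoding Slc36a1os and Slc36a3os. The samples are 16 whole kidneys of wild-type genotype whose RNA was sequenced, with 4 per group. The groups were cisplatin with nicotinamide mononucleotide (NMN), cisplatin with nicotinamide riboside (NR), cisplatin alone, and PBS (phosphate-buffered saline), and are called NMN, NR, cisplatin and PBS kidneys here. Cisplatin, a chemotherapy agent, is toxic to proximal tubule cells, NMN and NR are precursors of the cofactor NAD that were injected before it, and kidneys were taken 3 days after cisplatin. Every NMN and NR kidney therefore received cisplatin too, and no group had a precursor without it. No label states dose, age or sex, nor whether each sample is a different animal; the p-values refer to sample-to-sample spread that could be purely technical.

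The kidney filters free amino acids from the plasma and takes nearly all that it filtered back in the proximal tubule. Carriers of the luminal brush border, such as the heterodimer of Slc3a1 with Slc7a9 and the sodium-coupled Slc6a19, bring amino acids into the cell, and basolateral carriers, such as the heterodimers of Slc3a2 with Slc7a7 or Slc7a8, release them to the blood. Several other members, among them Slc7a5, Slc38a2 and Slc7a1, are housekeeping or inducible carriers that many cells raise through the transcription factor ATF4 when amino acids run short or under stress.

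The values are TPM (read abundance scaled to gene length and to a fixed total per library), so levels can be compared between genes, but they keep no read depth and the depth behind each value is unknown. Of the 64 members, 20 had a highest group mean of at least 20 TPM, 9 lay between 5 and 20 TPM, and 35 lay under 5 TPM, of which 6 were listed at 0 in every library. At least 1 TPM in at least 4 libraries was reached by 39 members, and only these were tested. The 64 members summed to 1715 ± 145 TPM in NMN kidneys, 1666 ± 174 TPM in NR kidneys, 1385 ± 140 TPM in cisplatin kidneys and 1907 ± 259 TPM in PBS kidneys (SD, n = 4 each, as for every mean and ratio given here). The make-up of that sum moved more than its size. Slc7a13, the light chain of an acidic amino acid carrier of the late proximal tubule, gave 18.7% ± 1.9 of it in NMN kidneys, 16.1% ± 1.91 in NR kidneys, 0.444% ± 0.17 in cisplatin kidneys and 22.6% ± 1.88 in PBS kidneys. Slc6a18, a brush border carrier of glycine and other neutral amino acids in the mouse, gave 13.4% ± 1.39, 14.4% ± 1.05 and 30.4% ± 1.96 in NMN, NR and cisplatin kidneys, and 9.09% ± 0.709 in PBS kidneys. By mean TPM, Slc7a13 ranked first among the members in NMN, NR and PBS kidneys, and Slc6a18 ranked first in cisplatin kidneys.

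**Figure D1:**
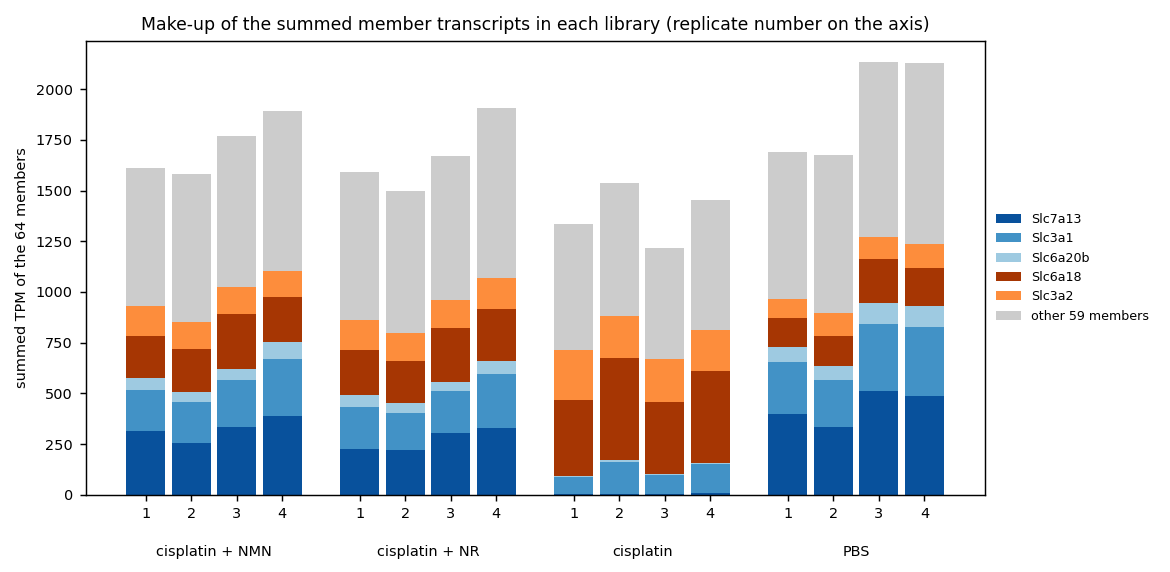
Summed TPM of the 64 members in each library (y axis, linear from 0), split into 5 members and the other 59, with the replicate number on the x axis and the groups in the order cisplatin with NMN, cisplatin with NR, cisplatin and PBS. The dark blue Slc7a13 band nearly vanishes in the 4 cisplatin libraries, where the brown Slc6a18 band is widest.

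Cell type markers moved strongly with the groups. All 11 proximal tubule markers, among them Slc34a1, Lrp2 and Hnf4a, were lower in cisplatin than in PBS kidneys and higher in NMN and in NR than in cisplatin kidneys. Their summed level was 4963 to 6240 TPM in NMN kidneys, 4773 to 5366 TPM in NR kidneys, 696 to 1051 TPM in cisplatin kidneys and 6752 to 7621 TPM in PBS kidneys. The 4 injured-tubule markers (Havcr1, Lcn2, Vcam1 and Krt20) summed to 386 to 1040, 841 to 927 and 3309 to 3700 TPM in NMN, NR and cisplatin kidneys, and to 2.15 to 11.6 TPM in PBS kidneys. Other nephron segments moved too. All 3 distal convoluted tubule markers were lower with cisplatin, at a summed 17.9 to 39.1 TPM against 412 to 626 TPM in PBS kidneys. Of 4 thick ascending limb markers 2 were lower, and of 4 collecting duct markers 3 were lower and 1, Aqp2, was higher. With cisplatin, all 5 endothelial, all 4 podocyte, all 5 red blood cell and all 4 fibroblast markers were also lower, all 4 adipose and all 3 ribosomal protein genes were higher, and 2 of 3 mitochondrially encoded mRNAs were lower. Of all tested genes, 40.7% were higher and 18.6% lower with cisplatin. Of 5 macrophage and monocyte markers, Cd68 was higher, at 34.4 ± 12.4 TPM in NMN kidneys, 34.1 ± 4.87 TPM in NR kidneys, 105 ± 11.3 TPM in cisplatin kidneys and 3.48 ± 2.1 TPM in PBS kidneys, Csf1r was lower, at 12.1 ± 1.21 TPM in NMN kidneys, 13.2 ± 1.66 TPM in NR kidneys, 5.15 ± 0.884 TPM in cisplatin kidneys and 17.3 ± 4.61 TPM in PBS kidneys, and Adgre1, C1qa and C1qb were not called in cisplatin against PBS kidneys. The part of these markers in the member results was not tested.

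Among the 39 tested members, 14 were higher and 14 lower in cisplatin than in PBS kidneys (limma on log2(TPM + 1), adjusted p under 0.05 over the 12960 genes tested), where 40.7% of all tested genes were higher and 18.6% lower. That is 35.9% of members in each direction, and 59.4% of all genes were called in either direction. The median log2 change was -0.05 over the members and 0.27 over all tested genes. In NMN against cisplatin kidneys, 12 members were higher and 11 lower, with 15.1% of all genes higher, 34.0% lower and 49.1% called in either direction. In NR against cisplatin kidneys, 13 were higher and 9 lower, with 14.4% of all genes higher, 32.2% lower and 46.6% called in either direction. Both comparisons share the cisplatin libraries with each other and with the comparison to PBS, so their opposite directions are not independent results. The 2 groups did not overlap for 27 of 39 members in cisplatin against PBS, beside 50.8% of all genes. The same held for 24 members in NMN against cisplatin, beside 44.3%, and for 21 in NR against cisplatin, beside 41.8%. Because TPM fixes the total, scaling by the median of ratios was tried as well. It brought the median of all genes to 0.00 in cisplatin against PBS, and the member counts became 11 higher and 18 lower. For NMN against cisplatin kidneys the counts became 13 higher and 10 lower, and for NR against cisplatin kidneys 14 higher and 5 lower.

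**Figure D2:**
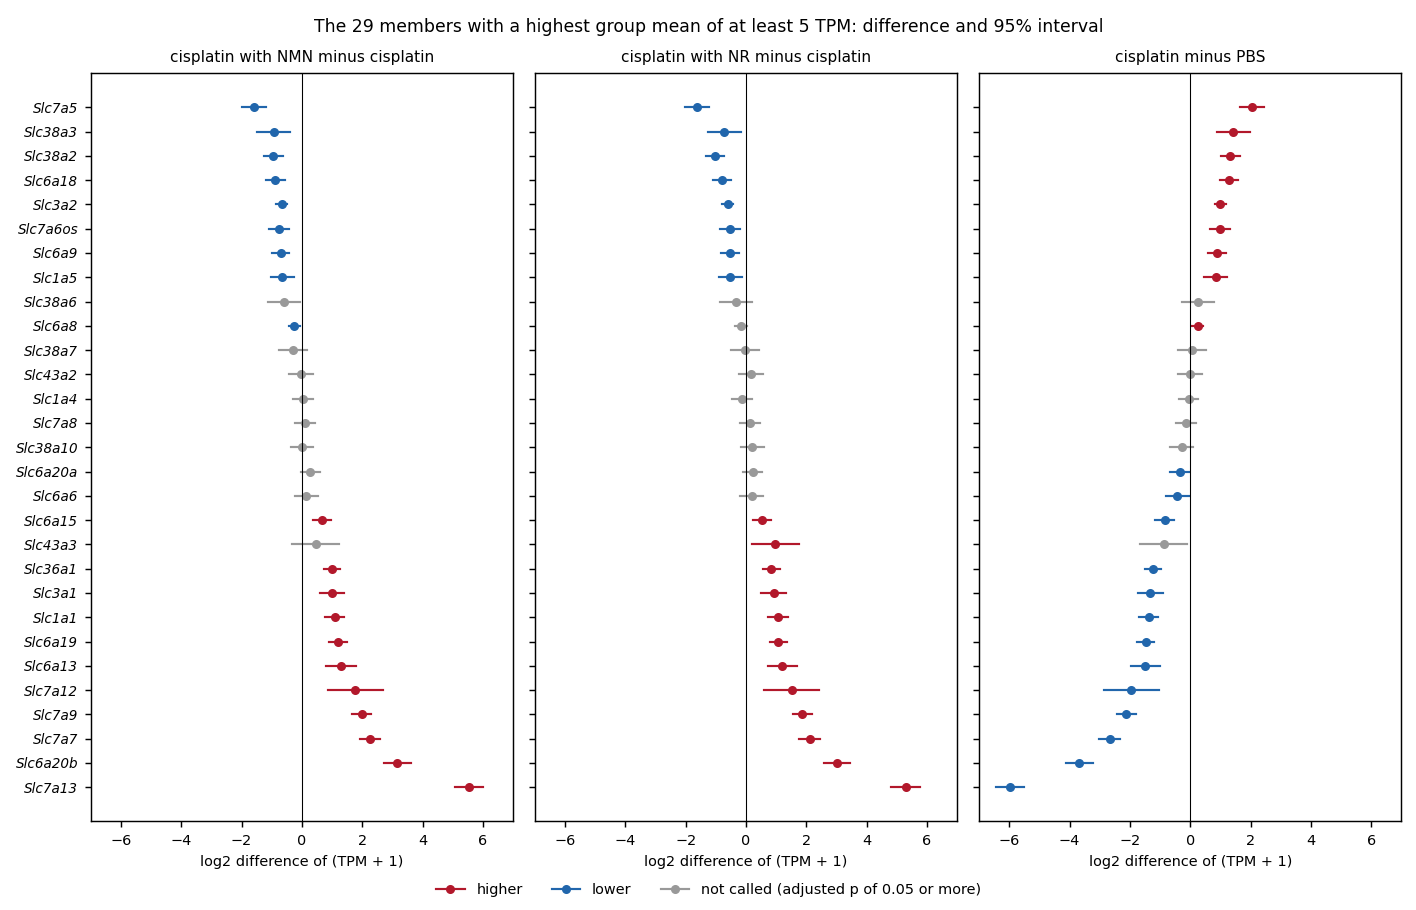
Log2 differences of (TPM + 1) with 95% intervals for the 29 members with a highest group mean of at least 5 TPM, in NMN against cisplatin, NR against cisplatin, and cisplatin against PBS kidneys. Red marks members called higher, blue lower and grey not called; Slc7a13 has the largest difference in each panel, at 5.55, 5.29 and -5.97.

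The luminal heterodimers were among the members that fell. Slc3a1 (rBAT) is the heavy chain that takes the light chain Slc7a9 to the brush border, where the pair reabsorbs cystine and dibasic amino acids; mutations of either gene cause cystinuria. Slc7a13 is a second light chain of Slc3a1, for aspartate, glutamate and cystine in the S3 segment. RefSeq promoters (GRCm38.p6; 250 bases before to 50 after each start) were matched by symbol for 46 of the 64 members. They were searched on both strands for 3 motifs: CAAAGNCCA, part of the HNF4A site, HNF4A being a nuclear receptor of proximal tubule cells; GTTAAT, part of the site of the tubule factor HNF1; and TGATGNAA, the C/EBP-ATF element. The HNF4A motif occurred in promoters of 3 of the 46 members (6.52%) and of 617 of all 27025 genes (2.28%). The 3 were Slc3a1, Slc7a9 and Slc7a7, which are all among the members lower with cisplatin, so the 250 bases before the start are shown here, with the HNF4A motif on either strand in capitals.
Slc3a1: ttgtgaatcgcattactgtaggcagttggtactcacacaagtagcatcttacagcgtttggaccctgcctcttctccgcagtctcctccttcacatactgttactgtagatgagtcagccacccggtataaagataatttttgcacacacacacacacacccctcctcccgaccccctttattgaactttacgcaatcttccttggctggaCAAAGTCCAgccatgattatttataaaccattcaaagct
Slc7a9: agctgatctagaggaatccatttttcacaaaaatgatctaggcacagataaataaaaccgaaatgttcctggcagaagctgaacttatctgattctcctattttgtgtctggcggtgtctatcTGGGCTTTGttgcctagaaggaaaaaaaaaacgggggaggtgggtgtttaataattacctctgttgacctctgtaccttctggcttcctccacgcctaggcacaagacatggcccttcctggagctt
Slc7a7: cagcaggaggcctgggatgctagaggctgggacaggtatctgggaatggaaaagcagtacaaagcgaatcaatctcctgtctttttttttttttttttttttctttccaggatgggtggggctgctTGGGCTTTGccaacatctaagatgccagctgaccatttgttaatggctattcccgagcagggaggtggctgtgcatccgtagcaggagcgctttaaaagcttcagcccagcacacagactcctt
These stretches lie at chr17:85028097-85028346 on the plus strand, chr7:35448842-35449091 on the plus strand and chr14:54409473-54409722 on the minus strand. The match begins 39 bases before the start of Slc3a1, 127 before that of Slc7a9 and 124 before that of Slc7a7, on the reverse strand in Slc7a9 and Slc7a7. Slc7a7 has 5 promoters in the table, and 1 of them holds it. The HNF1 motif occurred in 6 of 46 members (13%; Slc36a1, Slc3a1, Slc6a13, Slc6a20a, Slc7a15 and Slc7a7) and in 8.24% of all genes. The C/EBP-ATF element occurred in 3 of 46 (6.52%; Slc1a4, Slc6a21 and Slc7a7) and in 4.51% of all genes. Of the 10 members lower with cisplatin that have a promoter in the table, 3 hold the HNF4A motif, 5 the HNF1 motif and 1 the C/EBP-ATF element. Of the 8 higher ones, none holds any of the 3. At the shares found over all genes, 8 genes are too few for this absence to set them apart. Genes with several promoters, such as Slc7a7, have more chances of a match. A match describes the letters in this window and is not a shown binding site.

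Slc7a13 had 314.7, 254.2, 334.3 and 387.8 TPM in NMN kidneys, 225.7, 221.2, 302.7 and 327.9 TPM in NR kidneys, 3.28, 6.05, 5.86 and 9.49 TPM in cisplatin kidneys and 399.02, 333.1, 512.9 and 488.2 TPM in PBS kidneys. The 4 cisplatin libraries lay far below all others, and NR libraries lay below every PBS library while NMN libraries overlapped them. Slc7a13 fell 62.7-fold in cisplatin against PBS kidneys, with a log2 change of -5.97 (SE 0.22, limma adjusted p = 3.95e-13). It was the largest change of any member, and folds on this scale of log2(TPM + 1) understate the change of low values. It was 46.9-fold higher in NMN than in cisplatin kidneys (log2 change 5.55, limma adjusted p = 2.41e-12) and 39-fold higher in NR than in cisplatin kidneys (log2 change 5.29, limma adjusted p = 5.12e-12). All 6 S3 markers, of which Slc7a13 is 1, were lower with cisplatin, at a summed 536 to 861 TPM in NMN, 468 to 721 TPM in NR, 59.3 to 115 TPM in cisplatin and 680 to 1242 TPM in PBS kidneys. Slc7a13 itself gave much of the PBS sum. Slc22a7, Slc5a8, Slc22a13, Cyp7b1 and Aadat averaged 168 ± 48.7, 64.7 ± 15.2, 64 ± 21.9, 57.8 ± 23.5 and 166 ± 61.2 TPM in PBS kidneys. In cisplatin kidneys they averaged 10.2 ± 3.91, 10.3 ± 3.72, 22.4 ± 7.22, 23.8 ± 5.76 and 15 ± 5.55 TPM. Against cisplatin kidneys, 5 of the 6 markers were called higher in NMN and in NR kidneys. In whole-kidney RNA, fewer cells of a type and less RNA of a gene per cell cannot be told apart. In GRCm38 the gene lies on chromosome 4 from 19818725 to 19842218.

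Slc3a1 had 201.3, 201.9, 231.6 and 284.03 TPM in NMN kidneys, 209.04, 182.2, 208.4 and 265.7 TPM in NR kidneys, 84.3, 156.4, 89.8 and 141.4 TPM in cisplatin kidneys and 253.9, 232.1, 328.9 and 339.1 TPM in PBS kidneys. Its cisplatin libraries lay below all 12 others, but they were less uniform than those of Slc7a13, with replicates 2 and 4 well above replicates 1 and 3. Slc7a9 had 63.4, 67.5, 68.8 and 64.99 TPM in NMN kidneys, 59.6, 61.04, 55.1 and 67.8 TPM in NR kidneys, 15.2, 14.99, 12.3 and 23.4 TPM in cisplatin kidneys and 66.04, 76.7, 65.7 and 85.3 TPM in PBS kidneys. Here too the cisplatin group stood apart, and the other groups overlapped one another. Slc3a1 fell 2.49-fold (log2 change -1.32, SE 0.19, limma adjusted p = 1.35e-05) and Slc7a9 fell 4.35-fold (log2 change -2.12, SE 0.15, limma adjusted p = 1.02e-09) in cisplatin against PBS kidneys. Both were higher again with a precursor: Slc3a1 by 0.99 in NMN and 0.91 in NR kidneys against cisplatin on the log2 scale (limma adjusted p = 0.000386 and 0.00094), Slc7a9 by 1.98 and 1.86 (limma adjusted p = 8.33e-09 and 2.19e-08). The ratio of Slc3a1 to Slc7a9 TPM was 3.48 ± 0.616 in NMN kidneys, 3.55 ± 0.413 in NR kidneys, 7.33 ± 2.19 in cisplatin kidneys and 3.96 ± 0.813 in PBS kidneys. Slc3a1 thus exceeded Slc7a9 by more in cisplatin kidneys, where the ratio ran from 5.54 to 10.4 and did not overlap the 3.03 to 5.01 of PBS kidneys. The second light chain, Slc7a13, had a higher mean than Slc3a1 in NMN, NR and PBS kidneys. In cisplatin kidneys its mean was lower, at 6.17 ± 2.55 TPM against 118 ± 36.3 TPM for Slc3a1. Slc3a1 shares 767 bases with Prepl on the opposite strand. The strand setting of the counting is not given in the sources used here, so reads of those bases may not be told apart.

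Slc7a12, a light chain whose partner is not known, was low and uneven, with 3.09, 2.31, 5.0 and 4.13 TPM in NMN kidneys, 1.53, 1.73, 5.03 and 3.98 TPM in NR kidneys, 0, 1.08, 0 and 0.5 TPM in cisplatin kidneys and 1.93, 2.07, 13.6 and 4.27 TPM in PBS kidneys. PBS replicate 3 stood well above the other libraries, and 2 cisplatin libraries were listed at 0. The log2 change was -1.95 (SE 0.43, limma adjusted p = 0.000901) in cisplatin against PBS kidneys, 1.77 in NMN against cisplatin kidneys (limma adjusted p = 0.00271) and 1.51 in NR against cisplatin kidneys (limma adjusted p = 0.00853).

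Of the 8 luminal carriers listed for the proximal tubule, 7 were lower and 1 was higher in cisplatin than in PBS kidneys, and the exception was Slc6a18. The median log2 change of the list was -1.43, against 0.27 over all genes tested, of which 18.6% were lower and 40.7% higher. Slc6a18 had 209.7, 208.5, 270.3 and 226.7 TPM in NMN kidneys, 225.5, 210.2, 265.5 and 257.2 TPM in NR kidneys, 378.2, 504.8, 356.6 and 449.6 TPM in cisplatin kidneys and 143.01, 148.2, 215.5 and 190.7 TPM in PBS kidneys. Its 4 cisplatin values exceeded every other library. Slc6a18 rose 2.43-fold, with a log2 change of 1.28 (SE 0.14, limma adjusted p = 4.85e-07). It was lower in NMN than in cisplatin kidneys, at -0.88 (SE 0.14, limma adjusted p = 6.96e-05), and lower in NR than in cisplatin kidneys, at -0.81 (SE 0.14, limma adjusted p = 0.00018). After median-of-ratios scaling its log2 change in cisplatin against PBS kidneys was 0.96, with the call kept.

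Slc6a19 (B0AT1), the main sodium-coupled carrier of neutral amino acids in the early proximal tubule and the gene of Hartnup disorder, went the other way. It had 61.6, 79.4, 53.6 and 82.8 TPM in NMN kidneys, 57.1, 68.1, 55.5 and 71.5 TPM in NR kidneys, 32.6, 29.6, 27.7 and 27.6 TPM in cisplatin kidneys and 75.6, 87.9, 76.97 and 94.7 TPM in PBS kidneys. The cisplatin group was the lowest, without overlap with any other group. Slc6a19 fell 2.79-fold in cisplatin against PBS kidneys (log2 change -1.48, SE 0.14, limma adjusted p = 4.44e-08) and was 2.29-fold higher in NMN and 2.1-fold higher in NR than in cisplatin kidneys (limma adjusted p = 1.64e-06 and 6.84e-06). The genes Slc6a18 and Slc6a19 are neighbours on the minus strand of chromosome 13 in GRCm38, at 73661752 to 73678023 and 73679745 to 73704865, with 1721 bases between them. The ratio of Slc6a18 to Slc6a19 TPM was 3.45 ± 1.11 in NMN kidneys, 3.85 ± 0.715 in NR kidneys, 14.5 ± 2.64 in cisplatin kidneys and 2.1 ± 0.487 in PBS kidneys. The antisense gene Slc6a19os shares 5040 bases with Slc6a19. Tmem27 (collectrin, also named Cltrn), the partner that brings Slc6a19 and Slc6a18 to the kidney brush border, averaged 942 ± 114 TPM in NMN kidneys, 841 ± 87.8 TPM in NR kidneys, 173 ± 6.3 TPM in cisplatin kidneys and 1222 ± 47.2 TPM in PBS kidneys. Its log2 change in cisplatin against PBS kidneys was -2.81 (SE 0.10, limma adjusted p = 1.11e-13), the direction of Slc6a19 and not that of Slc6a18.

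**Figure D3:**
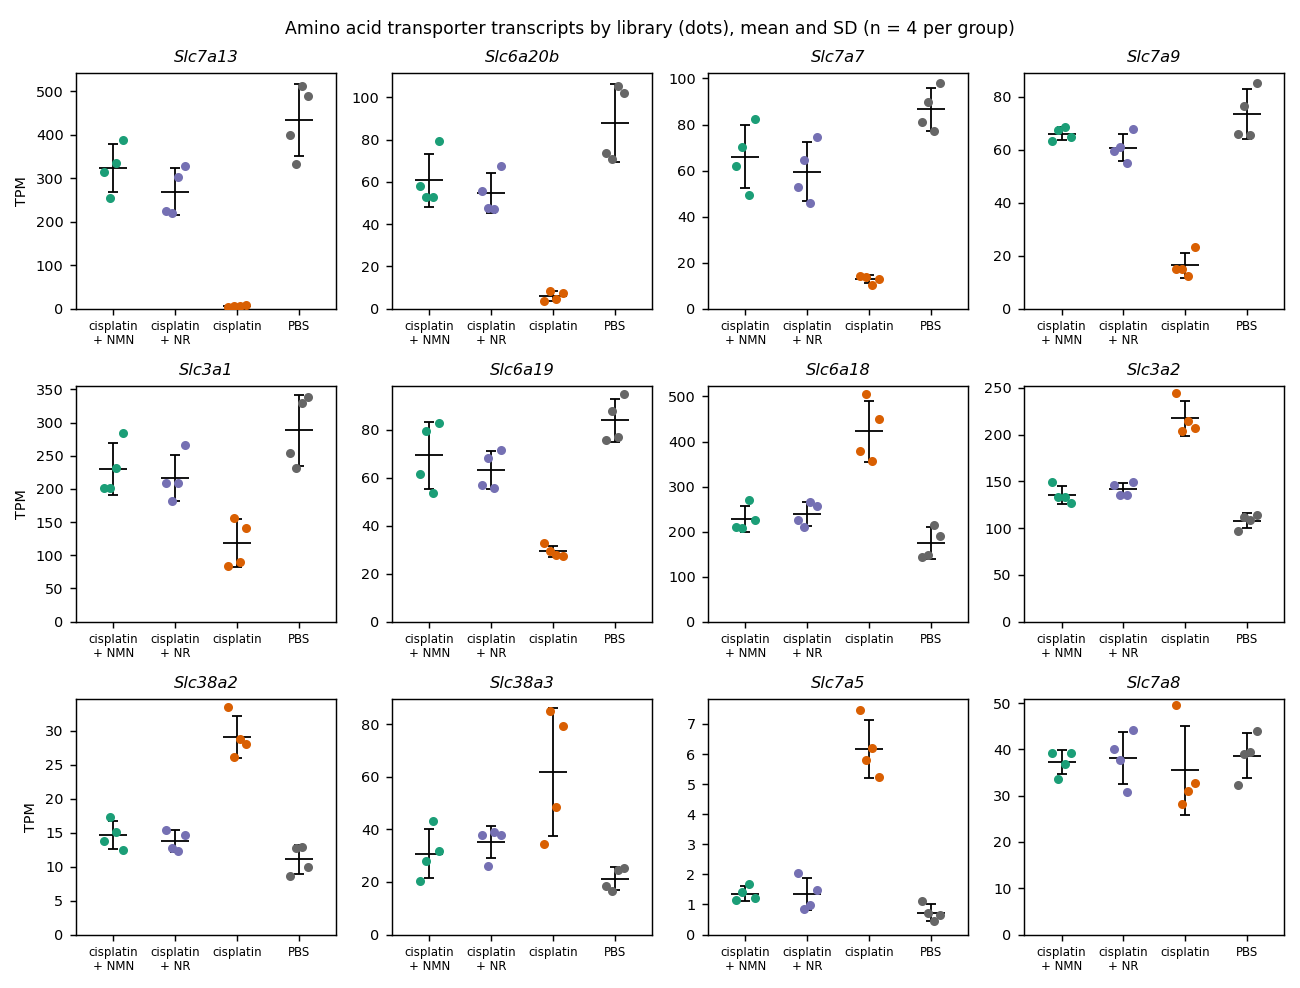
TPM (y axes, linear from 0) of 12 members in each of the 16 libraries, with group means and SD (n = 4); groups run from cisplatin with NMN and cisplatin with NR to cisplatin and PBS. Slc7a13, Slc6a20b, Slc7a7, Slc7a9, Slc3a1 and Slc6a19 are lowest in cisplatin kidneys, Slc6a18, Slc3a2, Slc38a2 and Slc7a5 are highest there, and the groups overlap for Slc7a8.

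The mouse carries 2 copies of the proline and imino acid carrier Slc6a20, which lie 2204 bases apart on chromosome 9. Slc6a20b had 57.9, 52.9, 52.7 and 79.2 TPM in NMN kidneys, 55.8, 47.6, 47.2 and 67.5 TPM in NR kidneys, 3.7, 8.5, 4.72 and 7.4 TPM in cisplatin kidneys and 73.5, 70.8, 105.5 and 101.8 TPM in PBS kidneys. No cisplatin library exceeded 8.5 TPM, and no other library lay under 47.2 TPM. Slc6a20b fell 12.9-fold in cisplatin against PBS kidneys (log2 change -3.68, SE 0.21, limma adjusted p = 8.88e-11) and was 8.93-fold higher in NMN and 8.08-fold higher in NR than in cisplatin kidneys (limma adjusted p = 2.03e-09 and 4.44e-09). Slc6a20a averaged 8.03 ± 1.56 TPM in NMN kidneys, 7.59 ± 0.661 TPM in NR kidneys, 6.34 ± 0.348 TPM in cisplatin kidneys and 8.43 ± 1.33 TPM in PBS kidneys. Its log2 change in cisplatin against PBS kidneys was -0.35 (SE 0.15, limma adjusted p = 0.0481), and it was not called against cisplatin in NMN (log2 change 0.28) or NR kidneys (log2 change 0.23). That fall was lost in 11 of the 16 fits that left out 1 library, with adjusted p up to 0.136, namely without any NR or cisplatin library or PBS 1, 3 or 4. After median-of-ratios scaling Slc6a20a was called in all 3 comparisons, at -0.63 in cisplatin against PBS (adjusted p = 0.0013), 0.49 in NMN against cisplatin (adjusted p = 0.00987) and 0.41 in NR against cisplatin kidneys (adjusted p = 0.0298). The copies are similar in sequence, so the counting could have split reads between them and the division is uncertain.

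Slc1a1 (EAAC1), the luminal carrier of glutamate and aspartate, had 58.6, 58.4, 66.00 and 76.7 TPM in NMN kidneys, 59.3, 54.01, 64.1 and 76.6 TPM in NR kidneys, 24.1, 35.01, 26.4 and 35.3 TPM in cisplatin kidneys and 70.3, 67.2, 93.8 and 88.4 TPM in PBS kidneys. Again the 4 cisplatin libraries were the lowest, and the rest overlapped. Slc1a1 shares 20919 bases with 4430402I18Rik on the opposite strand, whose highest value in any library was 10.82 TPM. Slc1a1 fell 2.6-fold (log2 change -1.38, SE 0.15, limma adjusted p = 4.33e-07) in cisplatin against PBS kidneys and was higher by 1.09 in NMN and 1.06 in NR than in cisplatin kidneys on the log2 scale (limma adjusted p = 1.41e-05 and 2.50e-05). Slc6a15, a carrier of branched-chain amino acids and proline, averaged 9.58 ± 1.36 TPM in NMN kidneys, 8.55 ± 1.07 TPM in NR kidneys, 5.59 ± 0.367 TPM in cisplatin kidneys and 11 ± 1.89 TPM in PBS kidneys, with a log2 change of -0.85 (SE 0.14, limma adjusted p = 5.69e-05) in cisplatin against PBS kidneys. Of the 8 luminal carriers, 6 were higher and 1, Slc6a18, was lower in NMN and in NR than in cisplatin kidneys, with list medians of 1.14 and 1.06. Of all tested genes, 15.1% and 14.4% were higher in these 2 comparisons.

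For the basolateral heterodimer of Slc3a2 with Slc7a7, RNA of the heavy chain Slc3a2 rose and that of the light chain Slc7a7 fell with cisplatin. Whole-kidney RNA does not show in which cells either changed. Slc3a2 (4F2hc, CD98), the heavy chain shared by Slc7a5, Slc7a6, Slc7a7 and Slc7a8, had 149.2, 133.3, 133.5 and 127.03 TPM in NMN kidneys, 145.8, 135.7, 134.98 and 149.7 TPM in NR kidneys, 244.6, 203.6, 214.9 and 206.9 TPM in cisplatin kidneys and 96.7, 111.6, 109.04 and 114.3 TPM in PBS kidneys. The cisplatin values exceeded all others, and the NMN and NR values lay between them and the PBS values without overlap. Slc3a2 rose 2-fold in cisplatin against PBS kidneys (log2 change 1.00, SE 0.09, limma adjusted p = 3.53e-08), and was lower, with log2 changes of -0.67 in NMN and -0.61 in NR than in cisplatin kidneys (limma adjusted p = 9.91e-06 and 3.32e-05). After median-of-ratios scaling those 2 values were -0.43 and -0.40, and both were still called (adjusted p = 0.00124 and 0.00245). Slc7a7 (y+LAT1), the light chain that exports dibasic amino acids and the gene of lysinuric protein intolerance, had 61.97, 70.3, 49.6 and 82.2 TPM in NMN kidneys, 52.9, 64.8, 46.1 and 74.6 TPM in NR kidneys, 14.4, 13.96, 10.4 and 12.7 TPM in cisplatin kidneys and 81.1, 90.00, 77.4 and 97.9 TPM in PBS kidneys. No cisplatin value exceeded 14.4 TPM, and no other lay under 46.1 TPM. Slc7a7 fell 6.33-fold in cisplatin against PBS kidneys (log2 change -2.66, SE 0.16, limma adjusted p = 1.91e-10) and was 4.79-fold higher in NMN and 4.33-fold higher in NR than in cisplatin kidneys (limma adjusted p = 5.42e-09 and 1.52e-08). The ratio of Slc3a2 to Slc7a7 TPM was 2.14 ± 0.513 in NMN kidneys, 2.45 ± 0.463 in NR kidneys, 17.1 ± 2.56 in cisplatin kidneys and 1.25 ± 0.108 in PBS kidneys. Of the 2 heavy chains, Slc3a1 had the higher TPM in NMN, NR and PBS kidneys and Slc3a2 in cisplatin kidneys: the ratio of Slc3a2 to Slc3a1 was 0.606 ± 0.126, 0.663 ± 0.0774 and 2.02 ± 0.762 in NMN, NR and cisplatin kidneys, and 0.383 ± 0.0692 in PBS kidneys.

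Slc7a8 (LAT2), the light chain that exchanges neutral amino acids basolaterally, did not follow Slc7a7. It had 39.1, 33.7, 36.9 and 39.3 TPM in NMN kidneys, 40.1, 37.7, 30.7 and 44.2 TPM in NR kidneys, 49.7, 28.3, 31.02 and 32.9 TPM in cisplatin kidneys and 32.4, 38.98, 39.4 and 44.00 TPM in PBS kidneys. The groups overlapped throughout, with cisplatin replicate 1 the highest library. The log2 change in cisplatin against PBS kidneys was -0.15 (SE 0.16, limma adjusted p = 0.439), with a 95% interval of -0.48 to 0.18. Relative to the median of all genes the value was lower: after median-of-ratios scaling it was -0.45 and was called, with a limma adjusted p of 0.0114. Slc43a2 (LAT4), a basolateral route out of the cell for branched-chain amino acids and phenylalanine, had 26.98, 22.9, 27.4 and 32.6 TPM in NMN kidneys, 37.2, 28.1, 24.5 and 37.97 TPM in NR kidneys, 36.04, 28.3, 23.1 and 25.4 TPM in cisplatin kidneys and 22.9, 24.6, 25.9 and 41.3 TPM in PBS kidneys. PBS replicate 4 was the highest library and the groups overlapped. The difference on the log2 scale in cisplatin against PBS kidneys was -0.00 (SE 0.19, limma adjusted p = 0.986), with a 95% interval of -0.40 to 0.40.

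Slc38a3 (SNAT3), which brings glutamine into proximal tubule cells from the blood and is known to rise in acidosis, had 20.4, 28.04, 43.1 and 31.8 TPM in NMN kidneys, 37.8, 26.2, 38.9 and 37.9 TPM in NR kidneys, 34.3, 85.1, 48.6 and 79.3 TPM in cisplatin kidneys and 18.5, 16.4, 24.7 and 25.3 TPM in PBS kidneys. The cisplatin libraries exceeded all PBS libraries but ran from 34.3 to 85.1 TPM, with replicate 1 and replicate 3 well below the other two, and they overlapped the NMN and NR libraries. Slc38a3 rose 2.69-fold in cisplatin against PBS kidneys (log2 change 1.43, SE 0.26, limma adjusted p = 0.000149). It was lower in NMN than in cisplatin kidneys, at -0.94 (SE 0.26, limma adjusted p = 0.00664), and lower in NR than in cisplatin kidneys, at -0.72 (SE 0.26, limma adjusted p = 0.0316). The call against NR kidneys was lost without cisplatin replicate 2, without cisplatin replicate 4 or without NR replicate 2, with log2 changes of -0.59 to -0.54 and adjusted p of 0.101 to 0.112. It was also lost after median-of-ratios scaling (-0.51, adjusted p = 0.126) and with no minimum TPM (adjusted p = 0.0527). Of the 5 basolateral carriers, Slc3a2 and Slc38a3 were higher, Slc7a7 was lower and 2 were not called with cisplatin. Of all tested genes, 40.7% were higher and 18.6% lower in cisplatin than in PBS kidneys. Slc7a7 was higher and Slc3a2 and Slc38a3 were lower in NMN and in NR than in cisplatin kidneys.

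Carriers linked to ATF4 rose with cisplatin. Of the 9 listed, 7 were tested, and 6 were higher and none lower in cisplatin than in PBS kidneys: Slc3a2, Slc7a5, Slc7a1, Slc38a2, Slc1a5 and Slc6a9. The median log2 change of the list was 1.00, against 0.27 over all genes tested, of which 40.7% were higher and 18.6% lower. The list had 6 lower and none higher in NMN and in NR than in cisplatin kidneys. Its medians were -0.71 and -0.61, against -0.23 and -0.20 over all genes tested, of which 34.0% and 32.2% were lower. Slc7a5 (LAT1), the light chain for large neutral amino acids such as leucine, had 1.15, 1.4, 1.68 and 1.22 TPM in NMN kidneys, 2.04, 0.85, 0.99 and 1.49 TPM in NR kidneys, 7.48, 5.79, 6.19 and 5.23 TPM in cisplatin kidneys and 1.1, 0.72, 0.45 and 0.66 TPM in PBS kidneys. No cisplatin library lay under 5.23 TPM, and no other exceeded 2.04 TPM. Slc7a5 rose 4.15-fold in cisplatin against PBS kidneys (log2 change 2.05, SE 0.19, limma adjusted p = 3.15e-08), the largest rise of any member on the log2(TPM + 1) scale, which understates members near 0 such as Slc36a2 and Slc6a12, and was 3.03-fold lower in NMN and 3.1-fold lower in NR than in cisplatin kidneys (limma adjusted p = 1.87e-06 and 1.85e-06). Even then, Slc7a5 stayed far below the level of its heavy chain Slc3a2. Slc7a5 shares 26545 bases with the gene Gm20388 on the opposite strand. The strand setting is not given, so reads of those bases may not be told apart.

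Slc38a2 (SNAT2), a sodium-coupled carrier of small neutral amino acids that cells raise when starved of them, had 13.8, 17.4, 15.1 and 12.5 TPM in NMN kidneys, 15.5, 12.7, 12.2 and 14.7 TPM in NR kidneys, 33.5, 26.2, 28.8 and 28.1 TPM in cisplatin kidneys and 8.56, 12.8, 12.96 and 9.96 TPM in PBS kidneys. The cisplatin group lay above the others without overlap. Slc38a2 rose 2.52-fold in cisplatin against PBS kidneys (log2 change 1.33, SE 0.15, limma adjusted p = 3.65e-07), and was lower, with log2 changes of -0.95 in NMN and -1.03 in NR than in cisplatin kidneys (limma adjusted p = 3.81e-05 and 1.95e-05). Slc1a5 (ASCT2), an exchanger of glutamine, serine and alanine, had 22.6, 33.8, 29.5 and 20.9 TPM in NMN kidneys, 22.3, 31.8, 34.4 and 28.4 TPM in NR kidneys, 42.2, 46.04, 41.01 and 38.2 TPM in cisplatin kidneys and 19.00, 32.2, 24.7 and 18.2 TPM in PBS kidneys. The cisplatin libraries were the highest, and the NMN, NR and PBS libraries overlapped. Slc1a5 rose 1.79-fold in cisplatin against PBS kidneys (log2 change 0.84, SE 0.18, limma adjusted p = 0.000734), and was lower, with log2 changes of -0.65 in NMN (limma adjusted p = 0.00674) and -0.52 in NR than in cisplatin kidneys (limma adjusted p = 0.0278). The change in NR kidneys was not called after median-of-ratios scaling (log2 change -0.31, adjusted p = 0.133), nor without NR replicate 1 or 4 or cisplatin replicate 1 or 2 (adjusted p up to 0.1). The same scaling gave 0.53 in cisplatin against PBS and -0.42 in NMN against cisplatin kidneys, with both calls kept (adjusted p = 0.00915 and 0.0428).

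Slc6a9 (GlyT1), a glycine carrier, averaged 10.6 ± 1.34 TPM in NMN kidneys, 12.1 ± 0.929 TPM in NR kidneys, 17.9 ± 1.58 TPM in cisplatin kidneys and 9.3 ± 1.68 TPM in PBS kidneys. Its log2 change was 0.89 (SE 0.14, limma adjusted p = 2.33e-05) in cisplatin against PBS kidneys, -0.71 in NMN and -0.53 in NR against cisplatin kidneys. In NR kidneys that call was lost after median-of-ratios scaling (log2 change -0.33, adjusted p = 0.0697). Slc6a9 shares 33260 bases with Gm17114, 6034 with Ccdc24 and 5939 with B4galt2, all on the opposite strand. Slc7a1 (CAT1), the carrier of arginine and lysine in most cells, averaged 1.39 ± 0.0918 TPM in NMN kidneys, 1.71 ± 0.584 TPM in NR kidneys, 3.92 ± 0.745 TPM in cisplatin kidneys and 0.945 ± 0.0592 TPM in PBS kidneys, with a log2 change of 1.32 (SE 0.18, limma adjusted p = 4.20e-06) in cisplatin against PBS kidneys. Slc1a4 (ASCT1), an exchanger of serine and alanine on the same list, averaged 7.12 ± 0.67 TPM in NMN kidneys, 6.16 ± 0.778 TPM in NR kidneys, 6.94 ± 1.22 TPM in cisplatin kidneys and 7.19 ± 1.17 TPM in PBS kidneys. Its log2 change in cisplatin against PBS kidneys was -0.05 (SE 0.15, limma adjusted p = 0.816), with a 95% interval of -0.36 to 0.27. The remaining 2 of the list, Slc7a3 and Slc38a1, were too low to be tested.

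Most other genes listed for amino acid sensing and the amino acid response were higher in cisplatin than in PBS kidneys. Mtor was lower, and Rptor and Nprl2 were not called. Rptor averaged 5.17 ± 0.928 TPM in cisplatin and 6.2 ± 1.09 TPM in PBS kidneys. Nprl2 averaged 17.7 ± 4.62 TPM in cisplatin and 23.3 ± 2.43 TPM in PBS kidneys. Of 14 tested, 11 were higher and 1 lower in cisplatin than in PBS kidneys, with a median log2 change of 1.64. Among all tested genes, 40.7% were higher and 18.6% lower. In NMN against cisplatin kidneys 1 was higher and 11 were lower, and in NR against cisplatin kidneys 1 was higher and 9 were lower. The list medians were -1.1 and -1.06. Among all tested genes, 15.1% and 14.4% were higher and 34.0% and 32.2% lower in these 2 comparisons. Atf4 itself averaged 91.8 ± 6.73 TPM in NMN kidneys, 82.8 ± 6.21 TPM in NR kidneys, 180 ± 9.75 TPM in cisplatin kidneys and 60.9 ± 8.46 TPM in PBS kidneys (log2 change 1.56, SE 0.11, limma adjusted p = 7.05e-10 in cisplatin against PBS kidneys). Asns, which makes asparagine, averaged 2.56 ± 0.784 TPM in NMN kidneys, 2.56 ± 1.05 TPM in NR kidneys, 10.8 ± 1.66 TPM in cisplatin kidneys and 1.14 ± 0.379 TPM in PBS kidneys, and Phgdh, the first enzyme of serine synthesis, averaged 10.3 ± 3.79 TPM in NMN kidneys, 8.88 ± 1.71 TPM in NR kidneys, 62.8 ± 6.37 TPM in cisplatin kidneys and 4.15 ± 0.9 TPM in PBS kidneys. The gene of this list that was lower with cisplatin and higher with either precursor was Mtor, the kinase that responds to amino acids, at 31.1 ± 7.57 TPM in NMN kidneys, 28.7 ± 5.6 TPM in NR kidneys, 19.1 ± 1.62 TPM in cisplatin kidneys and 32 ± 7.1 TPM in PBS kidneys. Among 8 tested partners and carriers of other families, 3 were lower and none higher in cisplatin than in PBS kidneys: Tmem27, the peptide carrier Slc15a2, at 58.1 ± 6.59 TPM in NMN kidneys, 49.5 ± 10.2 TPM in NR kidneys, 19.7 ± 3.67 TPM in cisplatin kidneys and 68.2 ± 16.1 TPM in PBS kidneys, and the carnitine carrier Slc22a5, at 82.2 ± 9.92 TPM in NMN kidneys, 83.2 ± 6.87 TPM in NR kidneys, 39.6 ± 1.92 TPM in cisplatin kidneys and 98.1 ± 5.39 TPM in PBS kidneys. All 3 were higher in NMN and in NR than in cisplatin kidneys. Of all tested genes, 18.6% were lower in cisplatin than in PBS kidneys. The shares higher in NMN and in NR than in cisplatin kidneys were 15.1% and 14.4%.

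Among carriers of taurine, betaine, creatine and GABA, Slc6a13 and Slc6a6 were lower with cisplatin. Slc6a8 and Slc6a12 were called higher, but neither call was kept after median-of-ratios scaling. Slc6a13 (GAT2), a carrier of GABA, taurine and betaine at the basolateral membrane of the proximal tubule, had 43.99, 44.8, 61.4 and 61.3 TPM in NMN kidneys, 47.2, 38.8, 58.7 and 53.1 TPM in NR kidneys, 12.1, 29.5, 17.6 and 28.9 TPM in cisplatin kidneys and 54.8, 49.6, 73.1 and 64.8 TPM in PBS kidneys. The cisplatin libraries were the lowest, with replicates 2 and 4 above replicates 1 and 3, as for Slc3a1. Slc6a13 fell 2.81-fold in cisplatin against PBS kidneys (log2 change -1.49, SE 0.23, limma adjusted p = 2.33e-05) and was 2.45-fold higher in NMN and 2.3-fold higher in NR than in cisplatin kidneys (limma adjusted p = 0.000161 and 0.000366). Slc6a6, the taurine carrier, had 27.4, 36.7, 37.8 and 45.05 TPM in NMN kidneys, 37.02, 31.1, 34.7 and 46.8 TPM in NR kidneys, 33.1, 35.7, 26.3 and 36.01 TPM in cisplatin kidneys and 32.99, 39.6, 51.2 and 57.3 TPM in PBS kidneys. All groups overlapped. On the log2 scale the change in cisplatin against PBS kidneys was -0.43 (SE 0.18, limma adjusted p = 0.0468). The call was lost in 9 of the 16 fits that left out 1 library, with adjusted p up to 0.164: those without NMN 2 or 3, NR 1 or 3, cisplatin 1, 2 or 3, or PBS 3 or 4. After median-of-ratios scaling the fall was larger, at -0.74 (adjusted p = 0.000577).

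Slc6a8, the creatine carrier, had 76.04, 77.8, 81.6 and 77.9 TPM in NMN kidneys, 88.5, 76.7, 74.4 and 92.2 TPM in NR kidneys, 94.6, 97.3, 89.5 and 90.97 TPM in cisplatin kidneys and 79.4, 76.9, 75.5 and 82.9 TPM in PBS kidneys. The cisplatin libraries lay above the PBS and NMN libraries by a small margin and overlapped the NR libraries. The creatine carrier's log2 change in cisplatin against PBS kidneys was 0.24 (SE 0.09, limma adjusted p = 0.0291), less than the 0.27 by which the median of all genes moved, and after median-of-ratios scaling it was -0.07 (adjusted p = 0.571), so its direction depends on the scaling. The call was also lost without cisplatin replicate 1 or 2 or PBS replicate 2 or 3. In NMN against cisplatin kidneys the log2 change was -0.25 (SE 0.09, limma adjusted p = 0.0314); that call was lost without NMN replicate 1, 2 or 4 or cisplatin replicate 1 or 2 (adjusted p up to 0.0783) and after median-of-ratios scaling (adjusted p = 0.974). Slc6a12 (BGT1), which takes up betaine as an osmolyte in the renal medulla, averaged 0.743 ± 1.33 TPM in NMN kidneys, 0.455 ± 0.532 TPM in NR kidneys, 0.985 ± 0.525 TPM in cisplatin kidneys and 0.05 ± 0.0416 TPM in PBS kidneys and was higher in cisplatin than in PBS kidneys at this low level (log2 change 0.87, SE 0.36, limma adjusted p = 0.0463). That call was lost without cisplatin replicate 1, 2 or 4 or any 1 of the PBS libraries (adjusted p up to 0.111), and after median-of-ratios scaling (0.77, adjusted p = 0.0926).

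Slc36a1 (PAT1), which exports small neutral amino acids from lysosomes together with protons, had 21.6, 22.8, 18.6 and 19.6 TPM in NMN kidneys, 18.4, 17.8, 16.7 and 20.7 TPM in NR kidneys, 8.75, 10.3, 8.3 and 12.3 TPM in cisplatin kidneys and 23.6, 24.9, 22.5 and 26.3 TPM in PBS kidneys. The cisplatin libraries lay below all others. Slc36a1 fell 2.34-fold in cisplatin against PBS kidneys (log2 change -1.23, SE 0.13, limma adjusted p = 2.03e-07) and was higher by 1.00 in NMN and 0.84 in NR than in cisplatin kidneys (limma adjusted p = 5.40e-06 and 4.07e-05). Slc36a2 (PAT2), a proton-coupled carrier of glycine and proline, was low throughout, at 0.065 ± 0.0995 TPM in NMN kidneys, 0.85 ± 0.904 TPM in NR kidneys, 1.96 ± 1.02 TPM in cisplatin kidneys and 0.0825 ± 0.128 TPM in PBS kidneys. The 4 adipose markers summed to 24.4 to 61.7, 23.1 to 215 and 135 to 275 TPM in NMN, NR and cisplatin kidneys. In PBS kidneys they summed to 24.9 to 71.6 TPM. Their part in the Slc36a2 values was not tested. Slc38a10, a little-studied member of the sodium-coupled family, had 38.4, 35.2, 43.1 and 49.2 TPM in NMN kidneys, 46.01, 38.3, 51.99 and 54.1 TPM in NR kidneys, 36.9, 54.3, 31.9 and 43.5 TPM in cisplatin kidneys and 45.5, 38.3, 59.7 and 61.2 TPM in PBS kidneys. The groups overlapped, and its log2 change in cisplatin against PBS kidneys was -0.29 (SE 0.18, limma adjusted p = 0.164). It was called lower without cisplatin replicate 2 (log2 change -0.43, adjusted p = 0.049) and after median-of-ratios scaling (-0.60, adjusted p = 0.00774).

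Slc7a6os, which codes for a protein of its own and lies 2010 bases from Slc7a6 on the opposite strand, had 20.4, 19.2, 23.4 and 14.8 TPM in NMN kidneys, 22.4, 27.3, 24.1 and 17.6 TPM in NR kidneys, 38.5, 32.5, 28.5 and 34.1 TPM in cisplatin kidneys and 16.5, 17.3, 18.4 and 13.5 TPM in PBS kidneys. The cisplatin libraries were the highest. The log2 change in cisplatin against PBS kidneys was 0.98 (SE 0.16, limma adjusted p = 3.11e-05), and it was lower, with log2 changes of -0.76 in NMN and -0.54 in NR than in cisplatin kidneys, the second of which was not called after median-of-ratios scaling (-0.33, adjusted p = 0.083). Its neighbour Slc7a6 (y+LAT2), the light chain for dibasic and neutral amino acids in many tissues, averaged 1.82 ± 0.58 TPM in NMN kidneys, 2.09 ± 0.22 TPM in NR kidneys, 2.75 ± 1.01 TPM in cisplatin kidneys and 1.25 ± 0.491 TPM in PBS kidneys and was higher in cisplatin than in PBS kidneys (log2 change 0.73, SE 0.21, limma adjusted p = 0.00682). The Slc7a6 call was lost without PBS 1, cisplatin 1 and cisplatin 3 together (0.54, limma adjusted p = 0.0723).

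Slc43a3, the nucleobase carrier, averaged 8.84 ± 4.11 TPM in NMN kidneys, 12.8 ± 5.11 TPM in NR kidneys, 6.46 ± 4.25 TPM in cisplatin kidneys and 11.8 ± 3.8 TPM in PBS kidneys. Its log2 change was -0.88 (SE 0.37, limma adjusted p = 0.0501) in cisplatin against PBS kidneys, not called, and 0.96 (SE 0.37, limma adjusted p = 0.042) in NR against cisplatin kidneys. Cisplatin replicate 1, at 12.7 TPM, stood well above the other 3 cisplatin libraries, which held 3.26 to 5.53 TPM. Without that library the log2 change against PBS kidneys was -1.22 and was called (adjusted p = 0.0059). It was also called without NMN 1 or 2, NR 1 or 2 or PBS 1 (adjusted p of 0.0208 to 0.0454) and after median-of-ratios scaling (-1.15, adjusted p = 0.0071). The call in NR kidneys was lost in 8 of 16 fits that left out 1 library: those without NR 2, 3 or 4, cisplatin 2, 3 or 4, NMN 4 or PBS 4 (adjusted p up to 0.137). Endothelial markers summed to 13.9 to 49.1 TPM in cisplatin kidneys, against 88.8 to 164 TPM in PBS kidneys; their part in the Slc43a3 values was not tested. Slc38a7, a lysosomal glutamine carrier, averaged 6.37 ± 1.24 TPM in NMN kidneys, 7.83 ± 1.91 TPM in NR kidneys, 8.3 ± 3.04 TPM in cisplatin kidneys and 7.63 ± 1.02 TPM in PBS kidneys and was not called in any comparison. Slc38a6, a relative of the glutamine carriers, averaged 6.57 ± 1.38 TPM in NMN kidneys, 8.18 ± 1.93 TPM in NR kidneys, 10.6 ± 3.06 TPM in cisplatin kidneys and 9.11 ± 4.49 TPM in PBS kidneys. Its NMN and cisplatin libraries did not overlap, with a log2 change of -0.60 (SE 0.25, limma adjusted p = 0.0589). It was called lower in NMN than in cisplatin kidneys with only the groups compared (adjusted p = 0.0386), without cisplatin replicate 3 (-0.71, adjusted p = 0.0384) and without PBS replicate 3 (adjusted p = 0.0218).

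Of the 35 members under 5 TPM, 10 were tested. Among these, Slc7a1, Slc7a6, Slc36a2, Slc6a12 and Slc6a17, a vesicular carrier of neurons, were higher and Slc6a4, the serotonin carrier, was lower in cisplatin than in PBS kidneys. The call of Slc6a17 was lost without PBS replicate 1 (adjusted p = 0.0502) and after median-of-ratios scaling (0.47, adjusted p = 0.0661). Slc6a4 averaged 2.17 ± 0.541 TPM in NMN kidneys, 1.77 ± 0.415 TPM in NR kidneys, 0.487 ± 0.35 TPM in cisplatin kidneys and 3.16 ± 1.21 TPM in PBS kidneys. The other 4, Slc1a2, Slc36a4, Slc38a9 (the lysosomal arginine sensor) and Slc7a4, were not called in any comparison. After median-of-ratios scaling Slc36a4 was called lower in cisplatin than in PBS kidneys (-0.47, adjusted p = 0.0133). Slc7a4, at 0.39 in cisplatin against PBS kidneys (limma adjusted p = 0.0685), was called higher without trend and robust moderation (adjusted p = 0.0484), without cisplatin replicate 1 (0.48, adjusted p = 0.0341) and without PBS replicate 1 (0.49, adjusted p = 0.0274). Without cisplatin replicate 1 it was also called lower in NR than in cisplatin kidneys (-0.48, adjusted p = 0.0431). Of the 25 members that were not tested, 6 were listed at 0 in all 16 libraries (Slc36a3, Slc38a8, Slc6a3, Slc6a11, Slc36a1os and Slc36a3os). The other 19 reached at most 3.63 TPM in any library, the value of Slc7a3 in NR replicate 4.

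Against PBS kidneys few members were called in the kidneys given a precursor, and the lack of a call does not show a return to PBS levels. At an unadjusted limma p under 0.05 there were 6 of 39 members and 2127 of 12960 genes in NMN against PBS kidneys. In NR against PBS kidneys there were 18 of 39 members and 2869 of 12960 genes. In NMN against PBS kidneys 1 member was higher and none lower, with 5.89% of all genes higher and 0.116% lower; the 2 groups did not overlap for 3 members, beside 10.2% of all genes. It was Slc3a2, at 0.33 (SE 0.09, limma adjusted p = 0.0402). That call was lost in 10 of 16 fits that left out 1 library (those without NMN 1, 2 or 3, cisplatin 2, 3 or 4, or any PBS library; adjusted p of 0.05 to 0.138) and after median-of-ratios scaling (0.26, adjusted p = 0.134). In NR against PBS kidneys 2 members were higher and 1 lower, with 8.79% of all genes higher and 1.21% lower; the 2 groups did not overlap for 8 members, beside 14.8% of all genes. Slc3a2 was higher at 0.39 (SE 0.09, limma adjusted p = 0.00912) and Slc6a18, whose groups overlapped, at 0.47 (SE 0.14, limma adjusted p = 0.0452), and Slc7a7 was lower at -0.55 (SE 0.16, limma adjusted p = 0.0405). After median-of-ratios scaling neither of the higher ones was called (adjusted p = 0.0583 for Slc3a2 and 0.076 for Slc6a18). The Slc6a18 call was lost without NMN 1, 2 or 4, NR 1, 3 or 4, cisplatin 4, or PBS 1, 2 or 4 (adjusted p up to 0.148). The Slc7a7 call was lost without NMN 1, NR 1 or 3, or PBS 1, 2 or 4 (adjusted p up to 0.144). Both comparisons share the PBS libraries.

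**Figure D4:**
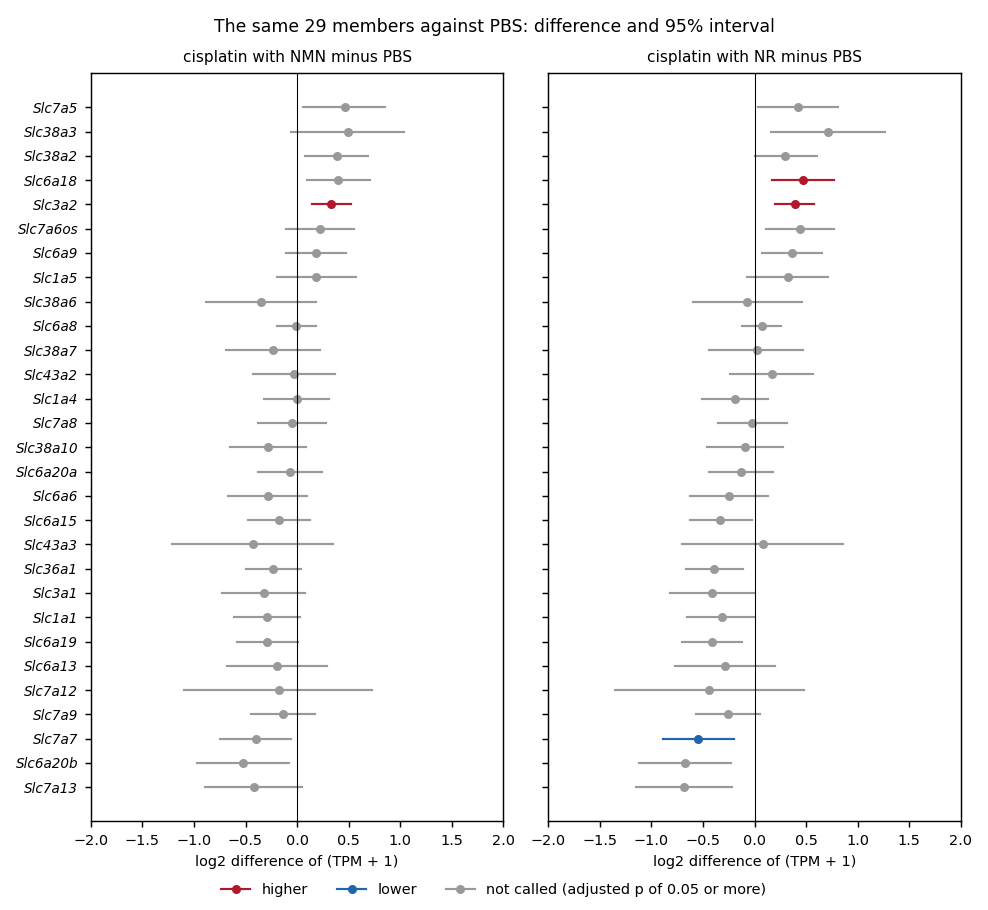
Log2 differences of (TPM + 1) with 95% intervals for the same 29 members in NMN against PBS and NR against PBS kidneys, in the same order from top to bottom. Slc3a2 is called higher in both, Slc6a18 is called higher and Slc7a7 lower in NR kidneys, and the largest falls in NR kidneys are those of Slc7a13 at -0.68 and Slc6a20b at -0.67, grey here but called after median-of-ratios scaling (adjusted p = 0.0393 and 0.0291).

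For other members that fell with cisplatin, the call between NR and PBS kidneys depended on the settings. The log2 change of Slc7a13 was -0.42 in NMN and -0.68 in NR against PBS kidneys (limma adjusted p = 0.372 and 0.0601), and that of Slc6a20b -0.52 and -0.67 (limma adjusted p = 0.2 and 0.0529). For Slc6a19 the values were -0.29 and -0.41 (limma adjusted p = 0.316 and 0.0738). In NR against PBS kidneys all 3 were called lower after median-of-ratios scaling, Slc7a13 at -0.79 (adjusted p = 0.0393), Slc6a20b at -0.77 (adjusted p = 0.0291) and Slc6a19 at -0.51 (adjusted p = 0.0272), as was Slc36a1 at -0.48 (adjusted p = 0.0282). Slc7a13 and Slc6a20b were also called with a minimum of 5 TPM (adjusted p = 0.0478 and 0.0409) and with only the groups compared (adjusted p = 0.0237 and 0.0239). When single libraries were left out, Slc7a13 was called without cisplatin 1 or 4 or PBS 2, Slc6a20b without NMN 4, NR 4, cisplatin 1 or 2 or PBS 2, and Slc6a19 without NMN 3 (adjusted p of 0.0217 to 0.0488). With the replicate number as a block in the limma fit, Slc7a13 (adjusted p = 0.00606), Slc6a20b (0.0248), Slc6a19 (0.0292) and Slc36a1 (0.0442) were called lower. The proximal tubule markers gave 2 of 11 lower in NMN and 6 of 11 lower in NR than in PBS kidneys. Of all tested genes, 0.116% and 1.21% were lower in these 2 comparisons.

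No member was called between NMN and NR kidneys. In NMN against NR kidneys none of the 39 members and none of the 12960 genes was called by limma (0.00% of genes), and at an unadjusted p under 0.05 there were 1 member, Slc36a2, and 370 genes. The groups overlapped for every tested member, and 1.64% of all genes did not overlap. Slc36a2 had 0, 0.21, 0.05 and 0 TPM in NMN kidneys, against 0, 0.18, 1.86 and 1.36 TPM in NR kidneys, and these overlap. Among the NR libraries, replicates 3 and 4 were also the highest for all 4 adipose markers. Adipoq, for example, had 0, 3.98, 9.77 and 9.53 TPM there. The part of adipose tissue in the Slc36a2 values was not tested. For Slc7a13 the difference of NMN minus NR on the log2 scale was 0.27, with a 95% interval of -0.20 to 0.73. For Slc6a18 it was -0.07, with an interval of -0.37 to 0.23, and for Slc3a2 -0.06, with an interval of -0.25 to 0.13.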

How the data were processed

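The deposited table gives TPM values for 23982 entries in 16 whole-kidney libraries, rounded to 2 decimals by the authors. The tools named, per the submitters' processing notes, are STAR 2.4.1d, Trim Galore, DESeq2 1.10.1 and HTSeq 0.6.1, with builds GRCm38 and mm10; for their roles, gene lengths, annotation and strandedness the notes give nothing. Because TPM has a fixed total, a gene's value also depends on the other genes, and no read depth is kept. The listed TPM summed to 860428 to 903678 per library, and 11535 to 12549 genes reached 1 TPM. Groups come from the labels. Entries sharing a symbol were summed. The 12960 genes reaching 1 TPM in 4 or more libraries entered 1 limma fit (limma 3.58.1, R 4.3.3) of log2(TPM + 1) on 4 group means, with trend and robust moderation and 12 residual degrees of freedom; calls are at a Benjamini-Hochberg adjusted p under 0.05 over all genes tested, and the procedure was tested on simulated data. Members with a highest group mean of at least 20 TPM are shown by library where described, those from 5 TPM by group means, the rest by counts; in addition the 3 largest rises and falls per comparison are named. The members, gene lists and motifs were chosen with earlier results of these data known. Alternatives were median-of-ratios scaling, a pseudocount of 0.1, a minimum of 5 TPM or none, limma without trend and robust, only the groups compared, a replicate block, and each library left out; the fit without PBS 1, cisplatin 1 and cisplatin 3, the libraries of lowest array weight, was chosen after seeing the data. Promoters are from RefSeq (GRCm38.p6), other positions from GENCODE vM21. Cltrn is listed as Tmem27, and some genes of the list of partners and other carriers are not reported here. Figures were drawn with matplotlib 3.10.9.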

Additional observations from a re-analysis of the deposited data

Results flagged for a closer look

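In 2 of the 116 groups of 4 libraries examined (29 members in 4 groups), 1 library lay far from the other 3. Chance flags about 1 group in 20. Slc38a3, the basolateral glutamine carrier, was at 26.2 TPM in NR replicate 2, whereas the other NR libraries held 37.83 to 38.85 TPM, and its lower level in NR than in cisplatin kidneys was not called without that library. Slc43a2, the basolateral carrier of branched-chain amino acids, was at 41.32 TPM in PBS replicate 4, whereas the other PBS libraries held 22.95 to 25.86 TPM.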

How the results depend on the processing

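Counts of members in cisplatin against PBS kidneys were 14 higher and 14 lower, and ran from 12 to 14 and from 12 to 15 when 1 library was left out; 9 were higher with a minimum of 5 TPM, where fewer genes were tested. NMN against cisplatin gave 12 in every such fit for the higher ones and 10 to 12 for the lower ones. NR against cisplatin gave 12 to 13 and 8 to 10, and 5 lower after median-of-ratios scaling. NMN against PBS gave 0 to 1 higher and 0 to 0 lower; 0 were higher after median-of-ratios scaling, without trend and robust, in only the groups compared, and without PBS 1, cisplatin 1 and cisplatin 3. NR against PBS gave 1 to 2 higher and 0 to 3 lower. There 0 were higher after median-of-ratios scaling and 1 with no minimum, without trend and robust, or without those 3 libraries; 5 were lower after median-of-ratios scaling, 3 with a minimum of 5 TPM or in only the groups compared, 0 with no minimum or without trend and robust, and 2 without those 3 libraries. NMN against NR gave 0 throughout. The causes were not tested. Among the 39 tested members, 1 called value reversed: Slc6a8 in cisplatin against PBS, at -0.07 after median-of-ratios scaling. Replicate numbers were not taken to pair the samples, since no label says what they stand for. Correlations between libraries of different groups were taken after subtracting each gene's group mean. Same-numbered libraries then correlated at -0.13 to 0.287 (median 0.068), and 9 of 24 pairs were over 0.1. The median for differently numbered libraries was -0.014. Out of 4 numbers, 12 of 16 libraries correlated best with their own, so the numbers may mark something that the groups share. With the replicate block, 1 member was lower in NMN against PBS, Slc7a7 (adjusted p = 0.0409), and 5 were lower in NR against PBS: Slc7a13 (adjusted p = 0.00606), Slc7a7 (0.00393), Slc6a20b (0.0248), Slc6a19 (0.0292) and Slc36a1 (0.0442). Without PBS 1, cisplatin 1 and cisplatin 3, called log2 changes against cisplatin moved by over 1.5 times for Slc3a1 (0.61 in NMN, 0.52 in NR), Slc6a13 (0.82 and 0.73), Slc38a3 (-1.43 and -1.22) and Slc43a3 (1.45 in NR), with calls kept. Other calls were lost in that fit. In NR against cisplatin these were Slc1a5, Slc6a9 and Slc7a12 (adjusted p = 0.0962, 0.0625 and 0.0997), and in NMN against cisplatin Slc6a8 (0.076). In cisplatin against PBS they were Slc6a20a, Slc6a6, Slc6a8, Slc6a12, Slc6a17 and Slc7a6 (0.0605 to 0.126), while Slc43a3, Slc7a8 and Slc7a4 became called. In NMN against PBS it was Slc3a2 (0.105), and in NR against PBS Slc7a7 and Slc6a18 (0.0682 and 0.116). The 2 members lower in NR against PBS in that fit were Slc6a20b and Slc7a13, newly called (limma adjusted p = 0.0187 and 0.0421). A pseudocount of 0.1 enlarged the changes of the low members Slc7a12, Slc36a2, Slc6a12 and Slc6a4, with calls kept. Depth is unknown, and exact zeros are given as listed.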

Other observations

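Tert, the telomerase reverse transcriptase gene next to Slc6a18, is no member and was looked at after the values of Slc6a18 were seen. It lies on the plus strand of chromosome 13 at 73626911 to 73649843 in GRCm38, 11908 bases from Slc6a18. Tert had 2.63, 3.26, 5.37 and 0.42 TPM in NMN kidneys, 6.41, 4.21, 2.10 and 1.80 TPM in NR kidneys, 45.2, 28.7, 46.4 and 29.3 TPM in cisplatin kidneys and 0.57, 0.97, 0.33 and 0.05 TPM in PBS kidneys. The cisplatin libraries stood far above all others. In cisplatin against PBS kidneys its log2 change was 4.70 (SE 0.39, limma adjusted p = 1.24e-08), in NMN against cisplatin kidneys -3.45 (SE 0.39, limma adjusted p = 1.53e-06) and in NR against cisplatin kidneys -3.13 (SE 0.39, limma adjusted p = 5.47e-06). Clptm1l, the next gene on the other side of Tert, averaged 94.8 ± 7.18 TPM in NMN kidneys, 94.5 ± 5.73 TPM in NR kidneys, 142 ± 19 TPM in cisplatin kidneys and 93.5 ± 18.9 TPM in PBS kidneys. Of this stretch, Clptm1l, Tert and Slc6a18 were thus higher and Slc6a19 lower in cisplatin than in PBS kidneys. How these values relate to one another was not tested.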
